A study of Mus musculus with 6 samples.

Results

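The mouse mitochondrial chromosome carries 37 genes, all with symbols that start with mt-, and 36 of them were measured among the 28293 genes of the count tables. They were chosen by symbol alone, through their Ensembl identifiers in GENCODE M21 (GRCm38). The 36 comprise 13 protein genes, 2 rRNA genes and 21 of the 22 tRNA genes. The tRNA gene for phenylalanine, mt-Tf, was not analysed here. Of the 36, 27 passed the filter on low counts and entered the test. The 9 that did not are all tRNA genes.

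The study profiled a mouse dermal fibroblast line as 3 wild-type libraries (WT) and 3 Lap2alpha knockout libraries (KO), all grown in DMEM with fetal calf serum and antibiotics. LAP2alpha is a nucleoplasmic partner of A-type lamins and 1 of several products of the gene Tmpo. Libraries were made from poly(A)-selected RNA with a directional kit. The labels do not say how the knockout was made, whether either group is a single clone, or whether replicates were separate cultures, so p-values here reflect library-to-library spread, which may be technical, and a difference between lines cannot be told apart from the knockout. The libraries held 22159339 to 27281473 counts. Tmpo, whose count sums all its isoforms, stood at 254, 249 and 252 counts per 1000000 (CPM) in WT and at 135, 122 and 131 CPM in KO. All 8 fibroblast markers were detected, with a summed level of 5788 to 6173 CPM in WT and 22285 to 23680 CPM in KO, although lumican (Lum) was at most 0.122 CPM in WT. The marker Thy1 went the other way, at 397, 375 and 365 CPM in WT and 227, 249.8 and 236 CPM in KO. Of 16 markers of other cell types 11 were measured, and no such group exceeded 2.57 CPM in sum. The part of the fibroblast marker difference in the mitochondrial values was not tested.

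Mitochondrial DNA is transcribed from both strands as long precursors. Most genes lie on 1 strand, and tRNA genes stand between the rRNA and protein genes, where their excision releases the neighbouring RNAs. The 13 proteins are core subunits of the respiratory chain and the ATP synthase and are made on mitochondrial ribosomes, whose rRNAs are mt-Rnr1 (12S) and mt-Rnr2 (16S). Most mitochondrial mRNAs, though not all, and the rRNAs receive short poly(A) tails, whereas tRNAs do not. Libraries made by poly(A) selection therefore sample these RNAs unequally. In some mRNAs the tail also supplies the end of the stop codon. In the reference sequence 10 of the 13 protein genes end in a whole stop codon and 3 end within a codon. The last 30 bases of the coding strand are shown for those 3 and, for comparison, for mt-Nd3 and mt-Nd5, which mark the lowest and the highest fold change among the protein genes. Capitals mark the last codon or the part of it that the gene encodes.
mt-Co3: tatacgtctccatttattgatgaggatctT
mt-Nd4: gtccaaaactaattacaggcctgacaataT
mt-Cytb: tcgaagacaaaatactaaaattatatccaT
mt-Nd3: acacaaaaaggattagaatgaacagagTAA
mt-Nd5: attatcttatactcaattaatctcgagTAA

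Mitochondrially encoded genes took a larger share of the KO libraries. They held 2.45%, 1.99% and 1.99% of all counts in WT and 4.46%, 4.17% and 3.76% in KO. The protein genes made up most of this, with 2.01 ± 0.238% in WT and 3.80 ± 0.285% in KO (mean ± SD, n = 3 libraries each, as for all values below). The rRNA genes held 0.130 ± 0.0273% in WT and 0.317 ± 0.0627% in KO without overlap between the groups. The tRNA genes held 0.00649 ± 0.00241% and 0.0102 ± 0.00322%, and their groups overlapped. Each sum is a description of the members and was not tested. As the values are shares of a library, more mitochondrial RNA and less of the other RNA cannot be told apart. Nor can more mitochondrial RNA per cell and more cells rich in it be told apart in these bulk libraries.

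**Figure D1:**
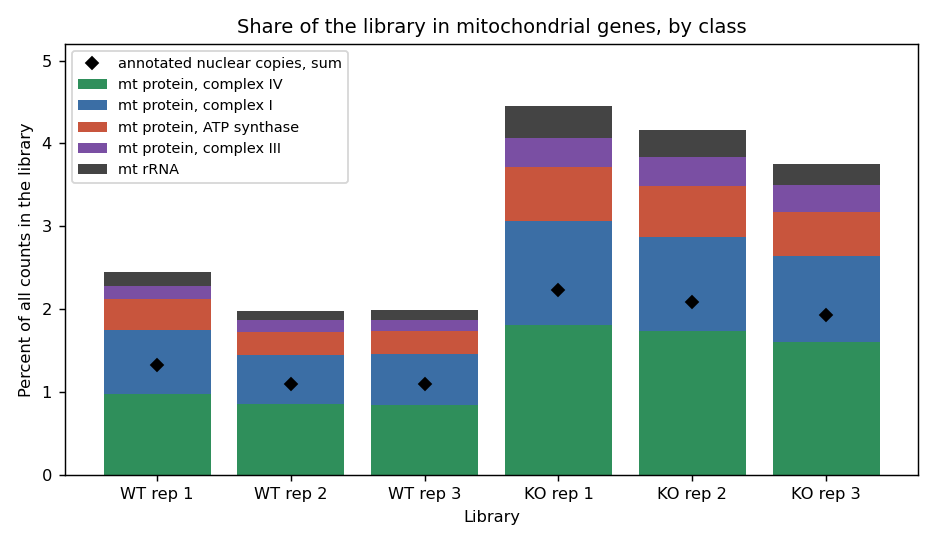
Percent of all counts in each library (y axis) taken by mitochondrial protein genes, stacked by complex, and by the 2 rRNA genes; tRNA shares, at most 0.0130%, are too small to draw. Black diamonds give the summed share of 16 annotated nuclear copies of mitochondrial sequence, and all 3 KO bars stand above all 3 WT bars.

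In the edgeR test, 20 of the 27 tested members were higher in KO at an adjusted p under 0.05, none was lower and 7 were not called. Among these 20, mt-Ts1 and mt-Tw passed the filter on low counts through their KO libraries alone, which favoured a call of higher. Over all 15081 tested genes 75.1% were called in either direction, 37.7% were called higher and 37.5% lower. The median log2 fold change was 0.96 for the 13 protein genes and 0.01 for all tested genes. CPM values did not overlap between the groups, with KO above WT, for 17 of the 27 members, where 42.2% of all tested genes did the same. No member was lower at an unadjusted p under 0.05 in this edgeR fit either. In alternative edgeR fits 3 were so without a low-count filter, 1 with a replicate block, 1 without WT replicate 3 and 2 without KO replicate 1. DESeq2 called 1 member lower, mt-Rnr1, and limma-voom called 0.

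Fold changes differed among the members. Called increases ran from a log2 fold change of 0.43 for mt-Nd1 to 3.47 for mt-Ts1, and mt-Rnr1 and mt-Nd3 were not called despite their high counts. Of the 15 protein and rRNA genes, all 15 were highest in WT replicate 1 among the WT libraries. In KO all 15 were highest in replicate 1 and lowest in replicate 3. Without WT replicate 1 the mean WT share of the library was 1.99%. Without KO replicate 1 the mean KO share was 3.97%.

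**Figure D2:**
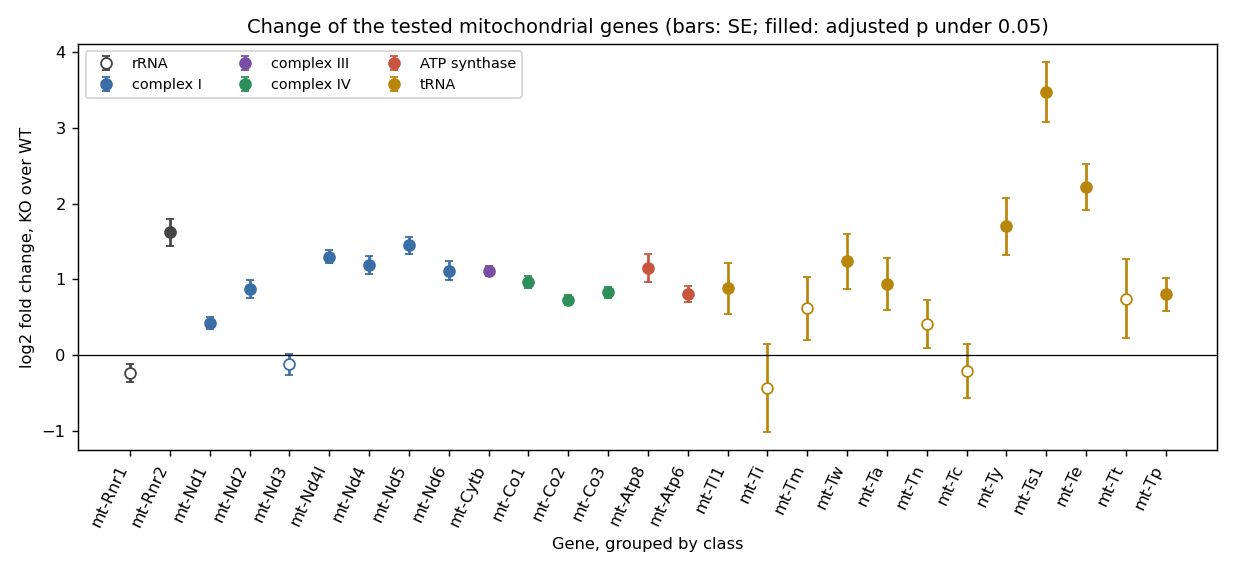
Log2 fold change of KO over WT (y axis) for the 27 tested members, grouped by class, with bars of 1 standard error (SE) and filled points for an edgeR adjusted p under 0.05. The 13 protein genes lie between -0.12 and 1.45, and the tRNA genes spread more widely, from -0.43 to 3.47.

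Complex I, the NADH dehydrogenase, has 7 mitochondrially encoded subunits, all in its membrane arm. Of these 6 rose and mt-Nd3 did not. The largest increase was in mt-Nd5, a proton-pumping subunit, at 762, 555 and 583 CPM in WT and 1984, 1794 and 1713 CPM in KO (log2 fold change 1.45, SE 0.11, edgeR adjusted p = 8.1e-07). Every KO library was above every WT library. The pumping subunit mt-Nd4 rose from 917 ± 168 to 2210 ± 238 CPM (log2 fold change 1.19) and mt-Nd4l, which is translated from the same mRNA, from 250.3 ± 33.9 to 651.1 ± 25.6 CPM (1.30). The pumping subunit mt-Nd2 rose from 810 ± 147 to 1565 ± 134 CPM (0.87).

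The smallest called change among the protein genes was in mt-Nd1, a subunit near the ubiquinone site. It stood at 2293, 1930 and 1909 CPM in WT and at 3053, 2962 and 2697 CPM in KO (log2 fold change 0.43, SE 0.08, edgeR adjusted p = 0.00063), still without overlap. By contrast mt-Nd3 was at 2114, 1507 and 1687 CPM in WT and 2053, 1675 and 1425 CPM in KO (log2 fold change -0.12 with SE 0.14, edgeR adjusted p = 0.45). The ranges overlapped almost entirely, and without WT replicate 1 the value was 0.01.

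The only protein gene on the minus strand, mt-Nd6, encodes the seventh complex I subunit. It lies at 13552 to 14070 of the mitochondrial chromosome (GRCm38) and overlaps the end of mt-Nd5 on the other strand by 14 bases. It rose from 289, 198 and 214 CPM in WT to 591, 516 and 498 CPM in KO (log2 fold change 1.12, SE 0.13, edgeR adjusted p = 1.7e-05). Its ratio to mt-Nd5 was 0.380, 0.357 and 0.367 in WT and 0.298, 0.288 and 0.291 in KO. This ratio was lower in every KO library, with an exact two-sided permutation p = 0.1, the smallest that 3 against 3 libraries allow. Whether the counting used strand is not given in the sources used here, so reads from RNA opposite to mt-Nd6 may be included. The part of poly(A) selection in the mt-Nd6 values was not tested.

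Complex III has 1 mitochondrially encoded subunit, cytochrome b. Its gene mt-Cytb was at 1632, 1454 and 1424 CPM in WT and 3507, 3493 and 3306 CPM in KO (log2 fold change 1.11, SE 0.06, edgeR adjusted p = 9.3e-08). This was the smallest adjusted p among the members.

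The 3 subunits of complex IV, cytochrome c oxidase, form its catalytic core, and all 3 of their genes rose. The haem-copper subunit gene mt-Co1, the most abundant member by counts, went from 4500, 3871 and 3950 CPM to 9057, 8530 and 7797 CPM (log2 fold change 0.96 with SE 0.08, edgeR adjusted p = 9.9e-07). The cytochrome c-docking subunit gene mt-Co2 rose from 2412 ± 156 to 4219 ± 140.1 CPM (0.73) and mt-Co3 from 2374 ± 211 to 4462 ± 271 CPM (0.83). The count ratio of mt-Co2 to mt-Co1 was 0.575, 0.612 and 0.578 in WT and 0.477, 0.502 and 0.521 in KO. This ratio was lower in every KO library (exact two-sided permutation p = 0.1, adjusted p = 0.163).

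The ATP synthase genes mt-Atp8 and mt-Atp6 share a transcript and overlap by 43 bases, shown in capitals with 12 bases on each side because reads there match both genes.
mt-Atp8/mt-Atp6: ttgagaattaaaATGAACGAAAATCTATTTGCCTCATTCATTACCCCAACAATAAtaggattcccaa
The proton-channel gene mt-Atp6 rose from 2198 ± 310 to 4064 ± 350.1 CPM (log2 fold change 0.81 with SE 0.10, edgeR adjusted p = 3.0e-05). The short partner mt-Atp8 stood at 1129, 683 and 702 CPM in WT and 2178, 2139 and 1607 CPM in KO (1.16, SE 0.18). WT replicate 1 was the highest WT library for both, and without it the log2 fold change of mt-Atp8 was 1.41.

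Per kilobase of gene, the protein genes spanned a 14.6-fold range of mean levels in WT and a 9.64-fold range in KO. In WT the highest was mt-Nd3 with 5084 ± 896 CPM per kb, and mt-Nd5 was the lowest with 347 ± 61.4 CPM per kb. In KO the highest was mt-Atp8 with 9678 ± 1564 CPM per kb, mt-Nd3 ranked 6 of 13 with 4936 ± 908 CPM per kb, and mt-Nd5 was again the lowest with 1004 ± 76.3 CPM per kb. Neighbours in this order often could not be separated. In WT the libraries of mt-Nd3, mt-Atp8, mt-Co2, mt-Atp6, mt-Co3 and mt-Co1 overlapped from each gene to the next, and so did those of mt-Nd4l, mt-Nd2 and mt-Nd4, and those of mt-Nd6 and mt-Nd5. Apart from mt-Nd3, no protein gene moved by more than 1 rank.

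**Figure D3:**
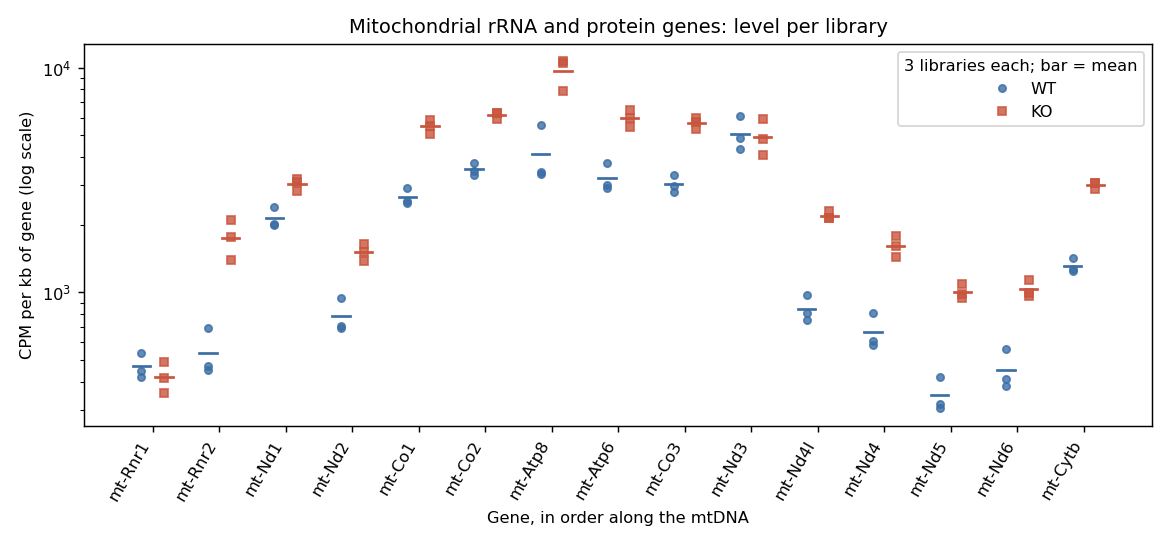
Level of each rRNA and protein gene in CPM per kb (y axis, log scale), in gene order along the mitochondrial DNA, with 1 point per library (circles WT, squares KO) and a bar at each mean. KO points stand above WT points for 12 of the 13 protein genes and for mt-Rnr2, and overlap with WT for mt-Nd3 and mt-Rnr1.

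Expressed as shares of the summed protein gene counts, which no library scaling affects, 8 of the 13 genes did not overlap between the groups. Of these, mt-Nd3 held 8.77 ± 0.628% in WT and 4.49 ± 0.501% in KO, and mt-Nd1 went from 10.18 ± 0.144% to 7.64 ± 0.117%. The share of mt-Nd5 went from 3.14 ± 0.183% to 4.81 ± 0.123%, and that of mt-Cytb from 7.51 ± 0.328% to 9.05 ± 0.411%. Higher shares were also seen for mt-Co1, mt-Nd4l, mt-Nd4 and mt-Nd6. Each of these 8 had an exact permutation p = 0.1 (two-sided, smallest possible) and an adjusted p of 0.163 over the 13 genes, so none passed the threshold. By complex, the complex I genes together went from 33.1 ± 1.27% to 29.99 ± 0.648%, while complex IV stayed at 44.4 ± 1.76% and 45.1 ± 0.662%, with overlap. Within complex I only mt-Nd1 and mt-Nd3 had lower shares without overlap. The share of mt-Nd2 overlapped, and those of mt-Nd4l, mt-Nd4, mt-Nd5 and mt-Nd6 were higher.

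**Figure D4:**
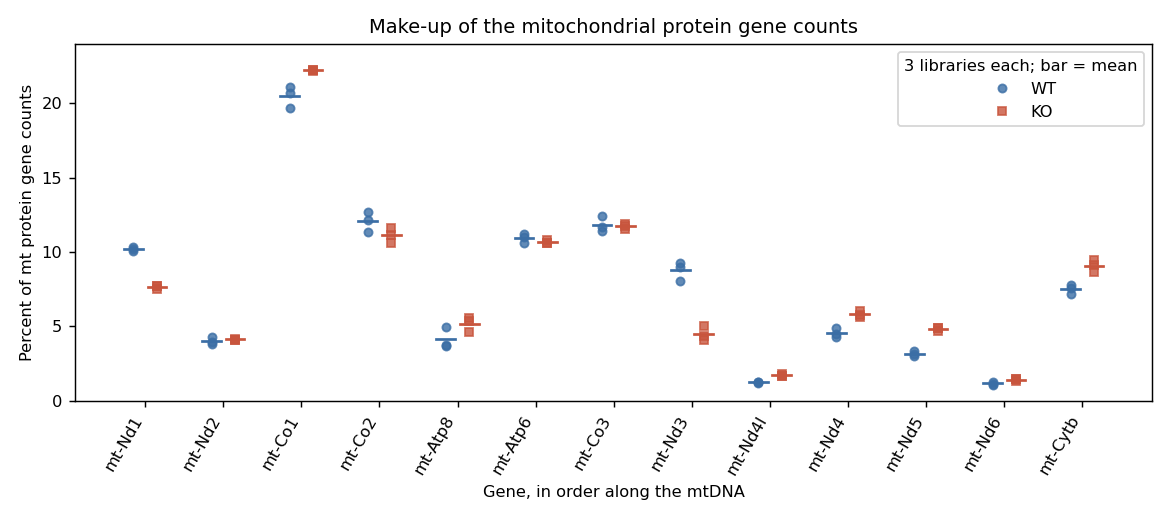
Share of each protein gene in the summed mitochondrial protein gene counts of a library (y axis, percent), with 1 point per library and a bar at each mean. The shares of mt-Nd1 and mt-Nd3 are lower in all 3 KO libraries, and those of mt-Nd5 and mt-Cytb are higher.

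The 2 rRNA genes lie next to each other, separated by the valine tRNA gene, yet had different fold changes. The 12S gene mt-Rnr1 (955 bases, at 70 to 1024) was at 514, 426 and 399 CPM in WT and 465, 398 and 340 CPM in KO (log2 fold change -0.23, SE 0.12, edgeR adjusted p = 0.097), with overlapping groups. Its adjusted p was 0.016 without KO replicate 1 and 0.039 without WT replicate 3, with lower values in KO, and over all alternatives it ran from 0.0002 to 0.26. The 16S gene mt-Rnr2 (1582 bases, at 1094 to 2675) was at 1099, 709 and 746 CPM in WT and 3327, 2774 and 2197 CPM in KO (1.62, SE 0.18, edgeR adjusted p = 1.3e-05), with no overlap. The count ratio of mt-Rnr2 to mt-Rnr1 was 2.14, 1.67 and 1.87 in WT and 7.15, 6.97 and 6.45 in KO. This ratio had the largest fold difference between the groups (3.62) of the 13 ratios between neighbouring rRNA and protein genes of the plus strand, a comparison chosen after the values were seen (exact permutation p = 0.1, adjusted p = 0.163).

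Both rRNAs are rich in A, at 37.8% in mt-Rnr1 and 38.2% in mt-Rnr2, but they differ in runs of A, to which the oligo(dT) of poly(A) selection can bind. The longest run is 5 bases in mt-Rnr1 and 7 bases in mt-Rnr2, and mt-Rnr2 has 4 runs of at least 6. Protein genes hold such runs too, of up to 8 bases in mt-Nd2 (log2 fold change 0.87) and 7 in mt-Nd5 (1.45). The longest run in mt-Nd4l (1.30) is 4 bases. A relation of runs of A to the fold change was not tested. The stretches around the longest runs, in capitals, are shown with 24 bases on each side.
mt-Rnr1: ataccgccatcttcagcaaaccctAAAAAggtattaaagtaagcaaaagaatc
mt-Rnr2: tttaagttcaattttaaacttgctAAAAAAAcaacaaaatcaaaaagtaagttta
A set of 7 nuclear transcripts without a tail, such as the 7SK RNA (Rn7sk), was also summed. It stood at 12.5, 14.05 and 8.31 CPM in WT and 8.65, 13.7 and 11.6 CPM in KO, with overlapping groups. As the rRNAs carry short tails and these RNAs none, the sum does not measure how the rRNAs passed the selection. The entries Rn7s1 and Rn7s2 hold identical values in every library, so the same reads probably enter this sum more than once. Alone, Rn7sk was at 3.07, 3.39 and 2.76 CPM in WT and 2.20, 3.73 and 2.91 CPM in KO, and its groups overlapped too. The part of the selection in the rRNA values was not tested. Across the 13 protein genes the log2 fold change showed little relation to the percentage of A (Spearman rho = 0.09, a description over genes of the same 6 libraries).

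Some other ratios between neighbours on the plus strand also did not overlap between the groups. The ratio of mt-Nd3 to mt-Co3, which lies just upstream beyond the glycine tRNA gene, was 0.811, 0.649 and 0.769 in WT and 0.436, 0.371 and 0.342 in KO. The next ratio, mt-Nd4l to mt-Nd3, was 0.136, 0.148 and 0.142 in WT and 0.332, 0.381 and 0.445 in KO. Both ratios had an exact two-sided permutation p = 0.1 and an adjusted p of 0.163 over the 13 ratios, so neither passed the threshold. The fold change was thus lower at mt-Nd3 than at the genes on either side. By contrast the ratios of mt-Co1 to mt-Nd2 and of mt-Co3 to mt-Atp6 overlapped between the groups. Along the plus strand the log2 fold change of the 12 protein genes had a Spearman rho of 0.55 with gene position (Pearson r = 0.39), a description of genes that share the same 6 libraries. With the WT level per kb of all 13 protein genes, the fold change had a rho of -0.66 (Pearson r = -0.69). Both of those quantities hold the same WT values.

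The tRNA genes gave few reads, 1300 to 3533 per library in all, and counts of these short genes may come from precursors as well as from mature tRNAs. Genes of the minus strand held 90.5% to 92.5% of these reads in each library although they are 8 of the 21. As the strand setting of the counting is not given, reads from RNA opposite to these genes may be included. This holds for mt-Ts1 and mt-Te below as well. The proline tRNA gene mt-Tp held 50.2% and the cysteine tRNA gene mt-Tc 25.3% of the tRNA counts over all libraries. These genes and the pair with the largest called fold changes are shown, with the anticodon in capitals.
mt-Tp: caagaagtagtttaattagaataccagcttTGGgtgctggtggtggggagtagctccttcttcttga
mt-Tc: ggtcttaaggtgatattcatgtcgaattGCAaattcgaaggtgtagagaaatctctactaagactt
mt-Ts1: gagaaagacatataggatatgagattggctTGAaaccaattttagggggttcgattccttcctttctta
mt-Te: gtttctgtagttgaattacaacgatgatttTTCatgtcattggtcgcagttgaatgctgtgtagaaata

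Of 12 tested tRNA genes 7 were called higher in KO, none lower and 5 not called, where 37.7% of all tested genes were called higher and 75.1% in either direction. The serine tRNA gene mt-Ts1, which overlaps the end of mt-Co1 on the other strand by 3 bases, had 5, 4 and 2 counts in WT and 45, 64 and 35 counts in KO (log2 fold change 3.47 with SE 0.39 and edgeR adjusted p = 1.5e-05). The glutamate tRNA gene mt-Te, adjacent to mt-Nd6 on the minus strand, had 44, 23 and 15 counts in WT and 171, 140 and 131 counts in KO (2.22, SE 0.30, edgeR adjusted p = 6.9e-05). The groups did not overlap for either gene. The tyrosine and tryptophan tRNA genes mt-Ty and mt-Tw also rose (1.70 and 1.24). For mt-Tw the counts were 8, 6 and 9 in WT and 27, 23 and 13 in KO. Both mt-Ts1 and mt-Tw passed the filter on low counts through their KO libraries alone, so a call of higher was favoured in advance.

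The 2 most counted tRNA genes differed in whether they were called. In WT mt-Tp was at 38.8, 23.8 and 25.8 CPM and in KO at 65.7, 59.5 and 37.1 CPM (log2 fold change 0.81, edgeR adjusted p = 0.0062), with WT replicate 1 above KO replicate 3. In the same libraries mt-Tc was at 34.1, 16.005 and 17.4 CPM in WT and 29.5, 21.6 and 10.3 CPM in KO (-0.21, edgeR adjusted p = 0.61). The difference between the fold changes was not tested. The alanine and leucine tRNA genes mt-Ta and mt-Tl1 were called higher at log2 fold changes of 0.94 and 0.88, with overlapping groups. Both calls were lost when any of WT replicate 2, WT replicate 3, KO replicate 1 or KO replicate 2 was left out, with an edgeR adjusted p from 0.067 to 0.13. Over all alternatives it ran from 8.2e-07 to 0.13 for mt-Tl1 and from 0.00099 to 0.12 for mt-Ta.

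The remaining tested tRNA genes were not called. They were mt-Tn for asparagine (log2 fold change 0.41), mt-Tt for threonine (0.75), mt-Tm for methionine (0.62) and mt-Ti for isoleucine (-0.43). Leaving out 1 library brought a call for mt-Tn (0.83) and mt-Tt (1.52) without WT replicate 1, for mt-Tm (0.96) without KO replicate 3 and for mt-Ti (-1.64) without KO replicate 1. Among the 9 that were too low to test, mt-Tq for glutamine had 2, 1 and 1 counts in WT and 14, 9 and 8 in KO, and mt-Tg for glycine had 1, 2 and 4 counts in WT and 18, 17 and 9 in KO. The gene mt-Ts2, also for serine, had 2, 2 and 2 counts in WT and 10, 10 and 9 in KO. Groups did not overlap for these 3, and they overlapped for mt-Tk, mt-Th, mt-Tl2 and mt-Tr. Only 3 counts over all libraries fell on mt-Tv for valine and on mt-Td for aspartate.

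Nuclear copies of mitochondrial DNA share reads with some of these genes. Of the nuclear genes measured, 16 matched the mitochondrial sequence at 90% identity or more over at least 80% of their length, and their summed counts were 1.17 ± 0.136% of the library in WT and 2.08 ± 0.146% in KO. With these copies added, the mitochondrial share of the library was 3.32% in WT and 6.21% in KO, a sum that holds only if shared reads were divided between the places. If they were counted at each, the sum holds reads more than once, and the share over counts without the copies was 2.17% in WT and 4.22% in KO. A block on chromosome 1 holds 7 pseudogenes with at least 99% identity. There Gm28437 (24613189 to 24613971, minus strand, GRCm38) copies mt-Co3 and had 57757, 61630 and 54128 counts in WT and 128318, 119672 and 107459 in KO, where mt-Co3 had 57772, 61618 and 54117 in WT and 128345, 119662 and 107451 in KO. The copies of mt-Co2 (Gm28661), mt-Nd3 (Gm28438) and mt-Nd4l (Gm10222) were as close, and over these 4 pairs the copy held 98.7% to 100.1% of the count of its counterpart. Such near-equal counts show that reads matching both places were either counted at each or divided evenly, and which of these was done is not given in the sources used here. For genes with such copies, the levels per kilobase and the shares of the protein gene counts are therefore uncertain against those without. Which of the places the RNA came from cannot be told from the counts.

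The partial copies Gm29216 and Gm28439 held 27.05% to 30.2% of the counts of mt-Co1 and 44.7% to 51.2% of those of mt-Nd4. The copy of mt-Atp6, Gm10925, exceeded it in every library, with 79787 against 56577 counts in WT replicate 1 and 172207 against 120271 in KO replicate 1. What sets this excess was not tested. Increases were called both among genes with a close copy and among those without, where 37.7% of all tested genes were called higher. Of the 8 rRNA and protein genes without a copy at 99% identity 7 rose (median 1.12 on the log2 scale), and of the 7 with one 6 rose (median 0.83). Since copies and counterparts hold the same reads, their fold changes are not separate measurements, as in Gm28437 (0.83) and mt-Co3 (0.83).

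Nuclear genes whose products transcribe, process and maintain the mitochondrial genome were mostly lower in KO. Of 51 listed genes, all tested, 34 fell, 7 rose and the other 10 passed no threshold. Their median log2 fold change was -0.47 beside 0.01 for all tested genes. Of all tested genes 37.5% were called lower and 37.7% higher, and roles with few genes, such as transcription below, lie not far from these shares. The number that rose was 4 without WT replicate 1, WT replicate 2 or KO replicate 3, and 3 without WT replicate 3. All 3 genes of transcript decay fell, among them the exonuclease gene Rexo2 (131 ± 2.71 to 77.9 ± 1.23 CPM, log2 fold change -0.83) and the polynucleotide phosphorylase gene Pnpt1 (50.8 ± 3.97 to 35.4 ± 3.39 CPM, -0.60). Of 7 genes of transcript stability and polyadenylation 5 fell and 2 rose. The mRNA-stabilising factor gene Lrpprc was at 169, 172 and 173 CPM in WT and 103.5, 93.9 and 102.9 CPM in KO (-0.85, SE 0.06, edgeR adjusted p = 2.4e-07), and Fastkd3 also fell (-1.18).

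Among 7 processing genes 4 fell and 2 rose. The RNase P subunit gene Trmt10c, whose product takes part in excising tRNAs, fell from 29.5 ± 1.66 to 13.6 ± 1.28 CPM (log2 fold change -1.20), and Tbrg4, which encodes a FASTK-family RNA-binding protein, from a mean of 80.1 to 35.4 CPM (-1.25). Of 6 transcription genes 3 fell and 3 were not called. The transcription and packaging factor Tfam was at 35.2, 33.5 and 34.4 CPM in WT and 29.7, 29.0 and 28.02 CPM in KO (-0.33), and the initiation factor Tfb2m fell as well (-0.72). In the group for mitochondrial DNA replication 7 of 9 fell and 1 rose, with the helicase gene Twnk (-1.07) and the single-strand binding protein gene Ssbp1 (-0.94) as examples.

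Of 11 genes of rRNA maturation and ribosome assembly 7 fell and 1 rose. The RNA granule protein gene Grsf1 fell from 157 ± 3.06 to 84.7 ± 6.03 CPM (log2 fold change -0.97), and Mterf3 fell by a like amount (-0.97). Of 8 regulators of mitochondrial biogenesis 5 fell and 1 rose. The coactivator gene Pprc1 was at 120.1, 124 and 125 CPM in WT and 34.7, 36.6 and 34.8 CPM in KO (-1.88, SE 0.05, edgeR adjusted p = 7.9e-10), and the transcription factor gene Nrf1 fell too (-0.69).

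Genes for the nuclear-encoded subunits of the same complexes were more often lower than higher in KO. Of 77 such genes 41 fell, 11 rose and 25 passed no threshold, and their median was -0.22 on the log2 scale. The shares called over all tested genes were 37.5% lower and 37.7% higher, so the counts of lower genes in complexes I and II are near the background. In complex I 17 of 37 nuclear subunit genes fell and 6 rose (median -0.13), beside 6 of 7 mitochondrial ones that rose (median 1.12). In complex III 6 of 9 fell and 1 rose, in complex IV 7 of 11 fell and 2 rose, and in the ATP synthase 9 of 16 fell and 2 rose. In complex II, which has no mitochondrially encoded subunit, 2 of 4 fell. The complex I accessory subunit gene Ndufb8 fell from 126, 138 and 132 CPM in WT to 54.2, 56.5 and 55.5 CPM in KO (-1.33, SE 0.05, edgeR adjusted p = 8.8e-09). The gene in each other complex with the smallest p was Sdhd (-0.68), Uqcrb (-0.61), Cox5b (-0.80) and Atp5b (-0.58), all lower in KO. The difference between the mitochondrial and nuclear lists was not tested.

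**Figure D5:**
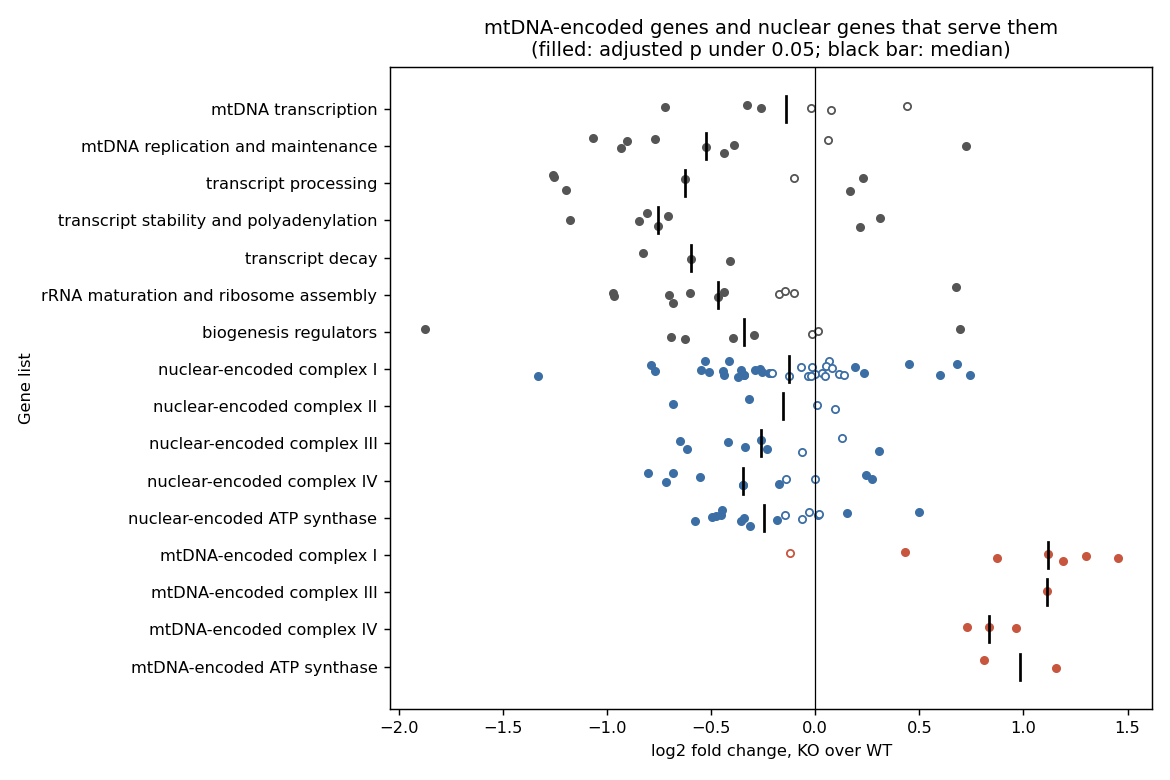
Log2 fold change of KO over WT (x axis) for single genes, by list: nuclear genes of mitochondrial gene expression (grey), nuclear-encoded subunits (blue) and mitochondrially encoded subunits (red), filled where the edgeR adjusted p was under 0.05, with a black bar at each median. The medians of all 12 nuclear lists lie below 0 and those of the 4 mitochondrial lists lie between 0.83 and 1.12.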

How the data were processed

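RNA from 3 WT and 3 KO libraries was aligned by the authors with STAR 2.7.10b to GRCm38, per the submitters' processing notes, and raw counts per Ensembl gene were deposited, 1 file per library. The sources used here do not give the counting program, its annotation or its strand setting. Symbols, positions and sequences came from GENCODE M21, and mitochondrial sequence was assembled from its transcripts. CPM are counts scaled to 1000000 per library and are given as mean ± SD. The test of KO against WT used edgeR 4.0.16 (R 4.3.3; TMM, filterByExpr, quasi-likelihood test, Benjamini-Hochberg adjustment over all tested genes, threshold 0.05). Log2 fold changes include TMM scaling, so they differ slightly from ratios of CPM. Nuclear copies were found with blastn 2.17.0 on the longest transcript of each gene. The fit was tested on simulated data. Alternatives used DESeq2 1.42.0, limma 3.58.1, other scalings and filters, a replicate block and leaving out each library.

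Named genes are all members, the 2 genes with the smallest p in each role of the mitochondrial expression list, the gene with the smallest p in each complex of the nuclear list, and the 6 copies with the highest CPM. Other copies and Lum were named after their values were seen. The members and lists were chosen with earlier results of these data known. Figures were drawn with matplotlib 3.10.9.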

Additional observations from a re-analysis of the deposited data

How the results depend on the processing

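Under 5 scalings, 3 filters and 3 tests the number of members called higher stayed within 1.5 times the reported 20, and the median log2 fold change of the protein genes moved by less than the spread between replicates. Leaving out 1 library gave 18 to 23 members called higher and a median of 0.91 to 1.02. The number called lower was 0, but 3 without a low-count filter (mt-Rnr1, mt-Nd3 and mt-Tc), 1 in the DESeq2 Wald test, 1 with a replicate block and 0 to 2 when a library was left out. The mitochondrial share of the library became 6.21% in KO and 3.32% in WT with nuclear copies added, which may count shared reads more than once, and 4.54% in KO over protein-coding counts. Machinery genes called higher numbered 7, but 4 without a low-count filter and 3 to 6 when a library was left out, over fewer samples. The causes were not tested. The replicate block changed 2 calls among the members, mt-Rnr1 (-0.23, edgeR adjusted p = 0.00064) and mt-Tn (0.42, edgeR adjusted p = 0.032). Over all tested genes, deviations of libraries with the same number had correlations of 0.15, -0.12 and 0.16 for replicates 1, 2 and 3. Not every library correlated best with its own number. All 15 protein and rRNA members were highest in replicate 1 in both groups. These genes move together with the mitochondrial share of a library, so this is 1 observation per group and not 15. With 3 libraries per group these values cannot settle whether libraries of the same number were handled together. Of 52 named genes with a fit, 42 kept their direction and side of the threshold in every alternative that gave a value. Counts under about 100 per library limit most tRNA genes.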
